A study of Homo sapiens with 12 samples.

Results

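The nuclear capping enzyme RNGTT and 4 genes that act with it on the 5' cap of mRNA, RNMT, NCBP1, NCBP2 and NCK1, were followed across 12 exon arrays. Probe sets were taken as theirs when the probe-to-gene table gave that gene as the only symbol. This rule found 106 of 1411399 probe sets, of which 29 belong to RNGTT, 19 to RNMT, 34 to NCBP1, 16 to NCBP2 and 8 to NCK1. No probe set of these genes was shared with another symbol.

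The cap is added in the nucleus while the transcript is still short. RNGTT removes the terminal phosphate and transfers a guanosine, and RNMT methylates that guanosine. NCBP1 and NCBP2 are the large and the small subunit of the nuclear cap-binding complex, in which NCBP2 contacts the cap and NCBP1 holds it in place and recruits export and processing factors. A cytoplasmic pool of capping enzyme can restore lost caps, and NCK1, an adaptor of SH2 and SH3 domains, is known as the scaffold that joins this enzyme to the kinase supplying its substrate.

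All samples are cytoplasmic RNA of U2OS, a line of human osteosarcoma cells, carrying a doxycycline-controlled K294A, a catalytically dead capping enzyme kept in the cytoplasm. Uninduced groups received no doxycycline, and induced groups received 1 ug/ml for 24 h. After a ribosomal RNA removal step, RNA was either left untreated or digested in vitro with the exonuclease Xrn1, whose substrate is RNA bearing a 5' monophosphate. Each of the 4 groups (uninduced untreated, uninduced Xrn1, induced untreated, induced Xrn1) has 3 arrays. Every group, controls included, carries the K294A construct, and the sources do not say whether the line is a single clone. They also do not say whether the RNGTT probe sets match the transgene, so the RNGTT level was not used as a check of induction. The labels call the samples biological replicates without naming separate cultures, so p-values measure the spread between these samples, which may be technical. These are bulk measurements, in which fewer cells and less RNA per cell cannot be told apart.

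Values are log2 probe set intensities, and each gene was averaged, per array, over its probe sets whose mean across the 12 arrays exceeded 2.04, the median of all probe sets. Of the 106 probe sets, 92 passed, and the 14 left out had means of 1.02 to 1.96. At the filter, RNMT probe set 3780299 stood just inside at 2.05 and RNMT probe set 3780312 just outside at 1.96. Of 10 mesenchymal and osteosarcoma markers, 3 had a mean above 6 over all arrays, and the means ran from 3.12 to 8.42. None of 13 markers of other cell types had a mean above 6, with 4.16 as the highest, so the 2 lists overlapped.

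The deposited table has a break that bears on many of the results for these genes. Its rows run in order of probe set number, and between numbers 3122285 and 3122287 the level of several arrays stepped up or down at once. Below the break, over 650745 rows, the median probe set of the 12 arrays ranged from 1.55 to 2.82, and above it, over 760654 rows, from 1.46 to 2.62. Uninduced untreated replicate 2 stood at 1.55 below and 2.62 above. Uninduced Xrn1 replicate 2 went the other way, from 2.82 to 1.51, and so did induced untreated replicate 2, from 2.66 to 1.46. Smaller steps of the latter kind occurred on induced untreated replicate 1, with 2.52 and 1.87, on uninduced Xrn1 replicate 3, with 2.45 and 1.87, and on uninduced untreated replicate 1, with 2.20 and 1.97. On the other 6 arrays the median below minus that above lay between -0.16 and -0.02. The medians over whole arrays, 2.09 to 2.25, do not show it.

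RNGTT, NCBP2 and NCK1 lie wholly below the break and RNMT and NCBP1 wholly above it. The gene comparisons are therefore given as deposited and after each array was centred on its median probe set within each side of the break, called centred values here. Centring adds the same amount to every gene with all its probe sets on one side: to the average Xrn1 difference -0.11 below the break and 0.0049 above it, to the difference in uninduced cells -0.55 and 0.39, and in induced cells 0.33 and -0.38. Single probe sets and listed genes are given as deposited unless stated. Centring was chosen after the break had been seen, and the cause of the break was not tested. With it, the median SD of a gene within groups was 0.32 in place of 0.39.

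**Figure D1:**
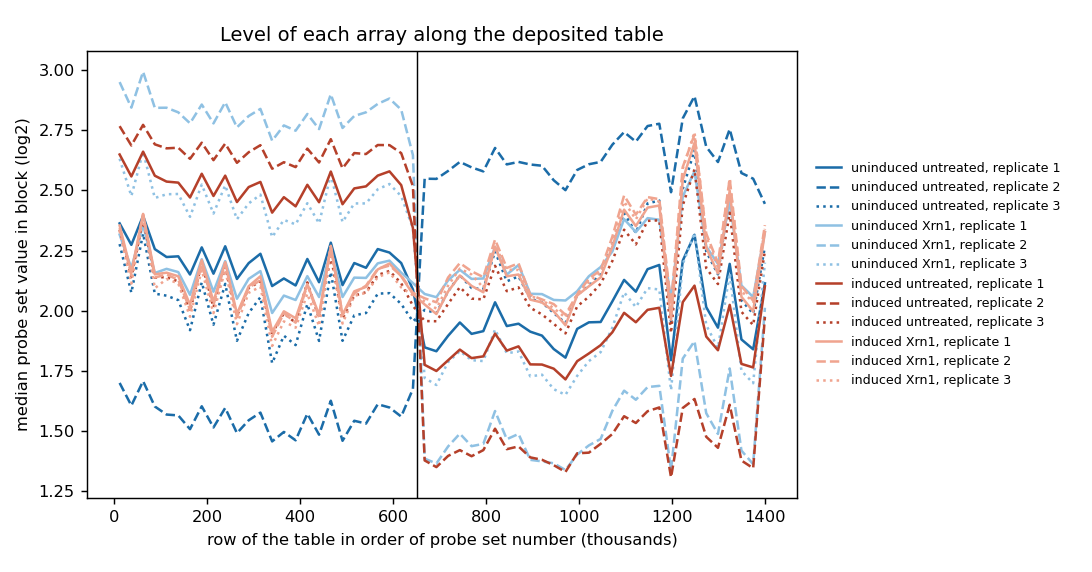
Median probe set value (log2) of each of the 12 arrays in 56 blocks of rows, in order of probe set number; colours are the 4 groups, line styles the replicates, and the vertical line the break between numbers 3122285 and 3122287. Uninduced untreated replicate 2 runs below the other arrays to the left of the line and above them to the right, while uninduced Xrn1 replicate 2 and induced untreated replicate 2 do the opposite.

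Xrn1 lowered the signal of these genes. In the average over induced and uninduced cells, 4 of the 5 fell as deposited (RNGTT, RNMT, NCBP1 and NCK1), where 29.8% of the 16883 genes tested were called lower and 14.2% higher. After centring all 5 fell, against 34.3% lower and 20.2% higher over all genes. After cyclic loess between arrays the same 4 fell, beside 26.7% lower and 27.5% higher. The median difference of the 5 was -1.26 as deposited and -1.37 after centring, beside medians of 0.05 and 0.00 for all genes. The largest fall was that of RNMT and the smallest difference that of NCBP2. Tests used limma over all 12 arrays with Benjamini-Hochberg adjustment over all genes, and called means an adjusted p under 0.05. As deposited, limma gave every gene the same SD, 0.42, whereas with each gene's own spread 3 of the 5 were called, RNGTT, RNMT and NCBP1, beside 24.5% of all genes lower, and after centring all 5 were, beside 31.7%.

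RNGTT, the bifunctional capping enzyme, read 4.28, 2.77 and 4.33 on the uninduced untreated arrays and 2.37, 3.23 and 2.76 on the uninduced Xrn1 arrays. In induced cells it read 3.26, 4.56 and 4.18 untreated and 2.70, 2.28 and 2.45 with Xrn1. Uninduced untreated replicate 2 overlapped with the Xrn1 arrays, whereas the induced groups were apart. The order of the group means was induced untreated (4.00 ± 0.67, SD, n = 3), uninduced untreated (3.79 ± 0.89), uninduced Xrn1 (2.79 ± 0.43) and induced Xrn1 (2.48 ± 0.21), and neither the 2 untreated groups nor the 2 Xrn1 groups differed beyond their spread. Xrn1 lowered RNGTT by a log2 difference of -1.26 ± 0.24 (standard error), a 2.40-fold fall, with an adjusted p of 1.32e-06 in limma and of 0.0283 with the gene's own spread.

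Centred, RNGTT read 4.31, 3.44 and 4.56 in uninduced untreated cells against 2.45, 2.64 and 2.54 with Xrn1, so the uninduced groups came apart. The induced values were 2.96, 4.13 and 4.31 untreated and 2.82, 2.41 and 2.61 with Xrn1, which also did not overlap, although induced untreated replicate 1 stood close to the Xrn1 arrays. The difference averaged -1.37 with an adjusted p of 5.32e-06 in limma. In uninduced cells it was -1.01 as deposited and -1.56 centred, and in induced cells -1.52 and -1.19. The uninduced call as deposited was lost when uninduced Xrn1 replicate 1 (-0.80), or replicate 1 (-0.76) or 3 (-0.74) of the uninduced untreated group, was left out. It was also lost with arrays centred on their median gene (-0.65) and after cyclic loess (-0.71).

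RNMT, the cap guanine methyltransferase, was the member with the widest gap. It read 5.53, 5.45 and 5.37 on the uninduced untreated arrays and 2.78, 2.11 and 2.72 after Xrn1, and in induced cells 3.91, 4.94 and 5.01 untreated against 3.01, 2.47 and 2.80. No Xrn1 array reached any untreated array. Group means were 5.45 ± 0.08 (SD, n = 3) uninduced untreated, 4.62 ± 0.61 induced untreated, 2.76 ± 0.27 induced Xrn1 and 2.54 ± 0.37 uninduced Xrn1, and the 2 Xrn1 means differed by less than their spread. The average difference was -2.39 ± 0.24, a 5.24-fold fall, with an adjusted p of 3.01e-21 in limma and of 0.000316 with its own spread. Centring left it at -2.38, with an adjusted p of 2.04e-10, and made both states more alike, from -2.92 and -1.86 in uninduced and induced cells to -2.52 and -2.25.

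NCBP1, the large cap-binding subunit, followed RNMT closely, as did many other genes. Its values were 5.07, 4.82 and 5.04 uninduced untreated and 2.74, 2.35 and 2.71 uninduced with Xrn1, then 3.50, 4.53 and 4.60 induced untreated and 3.10, 2.67 and 3.20 induced with Xrn1. Untreated and Xrn1 arrays did not overlap in either state. The means ran from 4.98 ± 0.13 (SD, n = 3) uninduced untreated through 4.21 ± 0.61 induced untreated and 2.99 ± 0.28 induced Xrn1 to 2.60 ± 0.22 uninduced Xrn1. Xrn1 lowered NCBP1 by -1.80 ± 0.24 on average, or 3.48-fold, with an adjusted p of 1.85e-12 in limma and of 0.000665 with its own spread. After centring the difference was -1.79, with -1.98 in uninduced and -1.60 in induced cells in place of -2.38 and -1.22.

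NCBP2, the small subunit that binds the cap itself, had the smallest average difference of the 5, and its calls differed between treatments of the break. As deposited it read 4.22, 3.04 and 4.41 in uninduced untreated cells and 3.44, 3.91 and 3.69 with Xrn1, so that untreated replicate 2 lay below all 3 Xrn1 arrays. In induced cells it read 4.03, 4.66 and 4.15 untreated and 3.64, 3.39 and 3.35 with Xrn1, without overlap. The means were 4.28 ± 0.34 (SD, n = 3) induced untreated, 3.89 ± 0.74 uninduced untreated, 3.68 ± 0.23 uninduced Xrn1 and 3.46 ± 0.16 induced Xrn1, and no neighbours in this order differed beyond their spread. The average difference of -0.52 ± 0.24 did not pass, with an adjusted p of 0.0686 in limma. It passed without induced untreated replicate 1 (-0.58) or without uninduced untreated replicate 2 (-0.73). It was called in induced cells (-0.82, adjusted p 0.0432) and not in uninduced cells (-0.21, adjusted p 0.665). The induced call was lost when any of 5 arrays was left out: induced untreated replicate 2 (-0.63), any of the 3 induced Xrn1 arrays (-0.91, -0.79 and -0.76 for replicates 1, 2 and 3) or uninduced Xrn1 replicate 3 (-0.82). It was also lost with the median of the probe sets (adjusted p 0.0853), the upper-quartile filter (0.0928), 1 kept probe set per gene (0.06), the trended and robust prior (0.054) and its own spread (0.118). The uninduced value turned to 0.15 with each array centred on its median gene, to 0.36 after cyclic loess and to 0.047 without uninduced untreated replicate 3.

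After centring NCBP2 was called in uninduced and not in induced cells. The centred values were 4.24, 3.72 and 4.63 against 3.52, 3.31 and 3.47 in uninduced cells, now apart, and 3.74, 4.23 and 4.28 against 3.76, 3.52 and 3.50 in induced cells, now overlapping. The centred difference was -0.76 in uninduced cells (adjusted p 0.0188 in limma), -0.49 in induced cells (adjusted p 0.139) and -0.63 on average (adjusted p 0.00566), a 1.54-fold fall. Quantile normalization on either side of the break, the other treatment of it, called both states (-0.47, adjusted p 0.0356, and -0.53, adjusted p 0.0215). The 95% interval of the average, -1.003 to -0.248, does not reach that of RNMT, -2.81 to -1.96, although no test of the difference between these genes was made.

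NCK1, the adaptor, spread most within groups. It read 4.64, 2.68 and 4.17 uninduced untreated, 2.37, 3.13 and 2.63 uninduced with Xrn1, 2.71, 4.52 and 3.93 induced untreated and 2.84, 2.26 and 2.07 induced with Xrn1. Uninduced untreated replicate 2 and induced untreated replicate 1 each fell among the Xrn1 arrays. The means were 3.83 ± 1.03 (SD, n = 3), 3.72 ± 0.93, 2.71 ± 0.38 and 2.39 ± 0.40 in the order uninduced untreated, induced untreated, uninduced Xrn1 and induced Xrn1, and only the step between the untreated and the Xrn1 pair exceeded the SD of both neighbours. The average difference of -1.23 ± 0.24, or 2.34-fold, had an adjusted p of 2.77e-06 in limma, but of 0.0597 with its own spread.

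Centred, uninduced NCK1 read 4.66, 3.35 and 4.39 untreated and 2.46, 2.53 and 2.41 with Xrn1, without overlap. Induced untreated replicate 1 stayed low at 2.42, within the induced Xrn1 values of 2.96, 2.38 and 2.22, while the other 2 induced untreated arrays read 4.09 and 4.06. The average difference became -1.34, with an adjusted p of 4.91e-05 in limma and of 0.0169 with the gene's own spread. Without induced untreated replicate 1 the centred Xrn1 difference in induced cells was -1.55 in place of -1.001. As deposited, the call was lost in uninduced cells without uninduced untreated replicate 1 (-0.72), with arrays centred on their median gene (-0.76) and after cyclic loess (-0.88), and in induced cells without induced untreated replicate 2 (-0.93).

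As deposited, 2 of the 5 genes had untreated and Xrn1 arrays apart in uninduced cells, where 33.6% of all genes did with Xrn1 lower, and 4 of 5 in induced cells, where 22.6% did. Centred, these counts were 5 of 5 beside 38.3% and 3 of 5 beside 19.6%. With the adjusted p the deposited counts were 4 of 5 in uninduced cells, beside 31.8% of all genes lower and 7.24% higher, and 5 of 5 in induced cells, beside 17.8% lower and 21.6% higher. The centred counts were 5 of 5, beside 35.8% lower and 5.93% higher, and 4 of 5, beside 19.4% lower and 14.5% higher. After cyclic loess, uninduced cells had 2 of 5, RNMT and NCBP1, beside 21.9% lower and 21.9% higher. With each gene's own spread the counts as deposited were 2 of 5 in either state, RNMT and NCBP1, beside 25.4% of all genes lower in uninduced and 6.14% in induced cells. After centring they were 5 of 5 in uninduced cells, beside 31.3%, and 2 of 5 in induced cells, beside 11.8%.

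**Figure D2:**
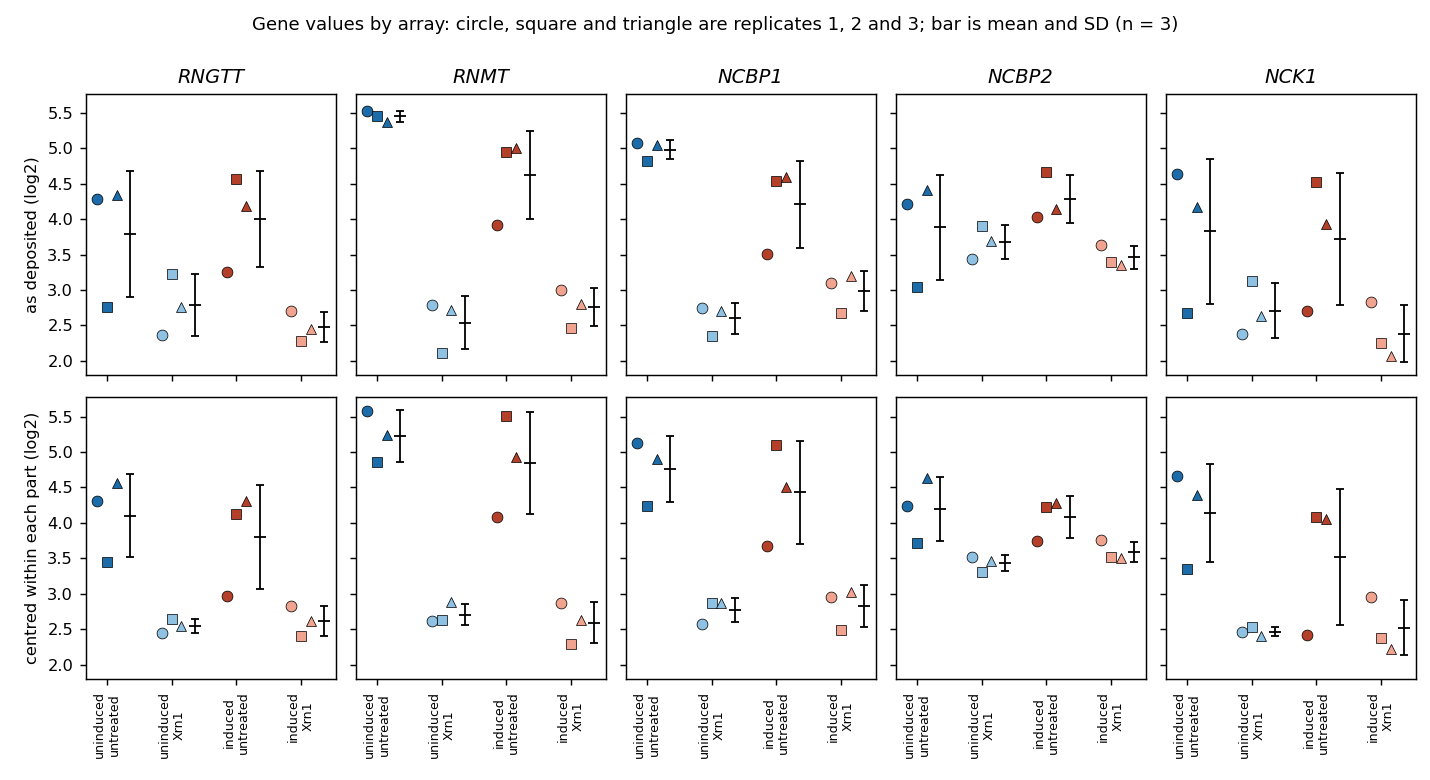
Gene values (log2) of the 5 genes on the 12 arrays, as deposited in the upper row and centred on either side of the break in the lower row; circles, squares and triangles are replicates 1, 2 and 3, and bars give the mean and SD of each group (n = 3). Squares of RNGTT, NCBP2 and NCK1 that lie out of line in the upper row, such as uninduced untreated replicate 2 of RNGTT at 2.77, move towards their group in the lower row (3.44).

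No gene of the 5 was called for induction of K294A, with or without Xrn1. In untreated RNA the deposited differences, induced minus uninduced, were 0.21 for RNGTT, -0.83 for RNMT, -0.77 for NCBP1, 0.39 for NCBP2 and -0.11 for NCK1, each with a standard error of 0.34. None was called by limma or with each gene's own spread, and RNMT (adjusted p 0.116) and NCBP1 (adjusted p 0.128) were the 2 with an unadjusted p under 0.05, which 30.8% of all genes had. Both passed without induced untreated replicate 3, at -1.02 and -0.96, and with array weights. Across genes as deposited, that array had r 0.98 with uninduced untreated replicate 3, but 0.84 and 0.87 with the other arrays of its group. Centred, the latter 2 were 0.91 and 0.93. Its median below minus that above the break was -0.02, while induced untreated replicates 1 and 2 had steps of 0.66 and 1.20. Leaving it out thus kept only induced untreated arrays that stood lower above the break, where RNMT and NCBP1 lie. Over all genes, 0.0296% were called lower and 0.0118% higher. The induced untreated arrays of RNMT and NCBP1 all lay under the uninduced ones, which 17.4% of all genes also did, and the median difference of all genes was -0.35.

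After centring, genes on both sides of the break gave the same sign. The differences became -0.30 for RNGTT, -0.39 for RNMT, -0.33 for NCBP1, -0.11 for NCBP2 and -0.62 for NCK1, beside a median of -0.23 for all genes. The sign turned for RNGTT and NCBP2, no group was apart from the other, which 2.59% of all genes were with induced cells lower, and no unadjusted p was under 0.05. The 95% intervals, from -0.93 to 0.33 for RNGTT and from -1.34 to 0.10 for NCK1, still allow a change of either direction. Without induced untreated replicate 1, which was the lowest of its group for all 5 genes after centring, the centred differences were 0.12, -0.01, 0.05, 0.06 and -0.06 in the same order. Across all centred genes, each induced untreated array correlated most with an uninduced untreated array. These r were 0.92, 0.96 and 0.98 for replicates 1, 2 and 3, beside at most 0.91, 0.93 and 0.93 within their own group.

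After Xrn1, induction gave deposited differences of -0.31 for RNGTT, 0.22 for RNMT, 0.39 for NCBP1, -0.22 for NCBP2 and -0.32 for NCK1. None was called by limma, where 0.00592% of all genes were lower and 0.0533% higher, and none had an unadjusted p under 0.05. Centred, the 5 differences lay between -0.11 and 0.16 and none was called, beside 0.0178% of all genes higher and 0 lower.

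The interaction is the Xrn1 difference in induced cells minus that in uninduced cells, and a positive value means a smaller fall in induced cells. As deposited it was 1.05 ± 0.48 (standard error) for RNMT and 1.15 ± 0.48 for NCBP1, and -0.52, -0.61 and -0.21 for RNGTT, NCBP2 and NCK1. None of the 5 was called by limma or with its own spread, although RNMT (adjusted p 0.0839) and NCBP1 (adjusted p 0.0619) had an unadjusted p under 0.05, as did 42.7% of all genes. Without induced untreated replicate 3 both passed, at 1.25 and 1.35. Over all genes 20.6% were called higher and 1.23% lower. This split followed the break: above it 3413 of 9294 genes were called higher and 2 lower, and below it 2 of 6979 were called higher and 205 lower. The members followed the same division, with RNMT and NCBP1 positive above the break and RNGTT, NCBP2 and NCK1 negative below it.

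Centred, the interaction was 0.37 for RNGTT, 0.28 for RNMT, 0.38 for NCBP1, 0.28 for NCBP2 and 0.67 for NCK1, all of the same sign, beside a median of 0.40 for all genes. None was called by limma or had an unadjusted p under 0.05. The share of all genes called was 0.0296% higher, 5 of 16883, and 0 lower. The 95% intervals of all 5 genes overlapped, as they had on the deposited values. All 5 now included 0, which the deposited intervals of RNMT and NCBP1 did not.

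**Figure D3:**
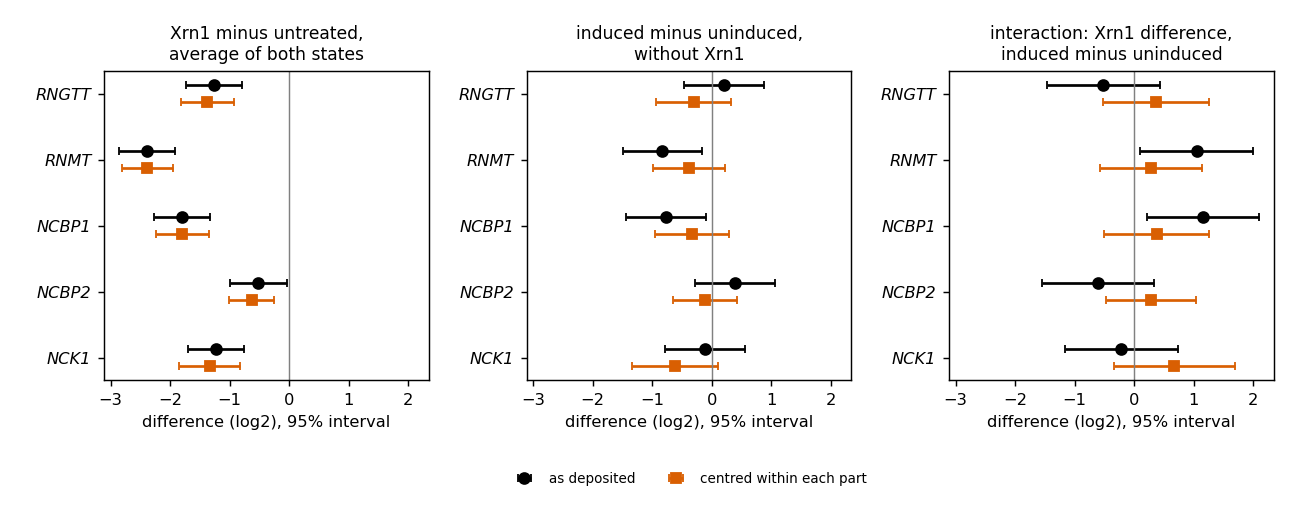
Differences (log2, points) with 95% intervals (bars) for the 5 genes in 3 comparisons, as deposited (black circles) and centred on either side of the break (orange squares). The average Xrn1 difference is below 0 for all 5 genes under both, while the interaction changes sign for RNGTT, NCBP2 and NCK1 and shrinks from 1.05 to 0.28 for RNMT and from 1.15 to 0.38 for NCBP1.

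Single probe sets of a gene did not all fall. In the average Xrn1 comparison 61 of the 92 probe sets kept were called lower and 2 higher, where 11.4% of the 705699 probe sets tested were lower and 11.7% higher. After centring 65 were lower and 2 higher, beside 12.7% and 12.9%. Calls of a lower signal were made for 15 of 24 probe sets of RNGTT, 15 of 17 of RNMT, 23 of 29 of NCBP1, 4 of 15 of NCBP2 and 4 of 7 of NCK1, and after centring for 16, 15, 24, 6 and 4. The median differences were -1.44, -2.61, -1.86, -0.71 and -1.30 in the same order. Probe sets of a gene share its RNA and are not replicates. The filter took the mean over all 12 arrays, so a probe set could pass through its untreated arrays alone. RNMT probe set 3780299 read 3.68, 3.76 and 3.28 uninduced untreated and 0.36, 1.31 and 1.06 with Xrn1. In uninduced cells the median difference was -1.62 over all 106 probe sets and -1.78 over the 92 kept.

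In RNMT 15 of 17 probe sets fell in the average, with differences of -3.86 to -1.49. In induced cells alone the differences of the 17 ran from -3.85 to 0.89, with a median of -2.05. Its brightest probe set, 3780302, read 7.37, 7.59 and 7.09 uninduced untreated and 4.61, 2.76 and 4.50 after Xrn1, and 6.99, 7.39 and 7.26 against 3.27, 3.01 and 3.82 in induced cells. Its average difference was -3.62 ± 0.36 (standard error), and that of 3780298, the lowest of the gene, -3.86. The 2 not called were 3780291 (-0.95, adjusted p 0.115) and 3780315, the next brightest, which read 5.58 ± 0.32 uninduced untreated, 5.50 ± 0.90 uninduced Xrn1, 4.85 ± 0.54 induced untreated and 5.75 ± 0.33 induced Xrn1 (SD, n = 3). Its difference of 0.41 was not called (adjusted p 0.463), while its neighbours by number, 3780314 and 3780316, fell by 1.79 and 2.88.

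The brightest probe set of NCBP1, 3181304, stood apart from the rest of that gene. It read 11.20, 10.99 and 10.73 uninduced untreated and 9.65, 11.17 and 10.22 with Xrn1, then 11.14, 11.03 and 10.34 induced untreated and 10.16, 10.09 and 10.82 with Xrn1. The groups overlapped, and its difference of -0.55 was not called (adjusted p 0.281). Probe set 3181311, the next brightest, fell by 3.52, with 8.04, 8.50 and 7.63 against 3.79, 3.81 and 4.98 in uninduced cells. Among the 4 highest-numbered probe sets kept, 3181341 was called (-1.02) and 3181339 (0.61), 3181340 (-0.20) and 3181342 (-0.40) were not. In induced cells alone 3181339 was called higher as deposited (1.60), with 2.89, 1.28 and 1.60 untreated against 2.85, 3.77 and 3.97. Centred, that rise was 1.22 and was not called.

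RNGTT had an exception at its highest numbers, which include its 2 brightest probe sets, 2964016 and 2964017 (means of 5.25 and 4.92). Probe set 2964008 fell by 2.93, from 6.18, 5.36 and 6.10 to 1.79, 2.96 and 3.02 in uninduced cells and from 4.19, 6.51 and 5.86 to 3.51, 2.55 and 2.81 in induced cells. By contrast 2964017 was called higher after Xrn1, with 4.15, 3.32 and 4.90 against 5.39, 6.54 and 5.14 in uninduced cells and 3.81, 4.62 and 4.83 against 5.36, 5.43 and 5.51 in induced cells, without overlap in either state. Its difference was 1.29 ± 0.37 (adjusted p 0.0113) as deposited and 1.18 (adjusted p 0.0102) centred. The 3 others of the last 4 numbers, 2964016, 2964018 and 2964019, gave -0.45, 0.16 and 0.03 and were not called.

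NCBP2 divided by probe set number. Of the 9 lowest-numbered probe sets kept, 2713076 to 2713084, all 9 were below 0 and 4 were called lower as deposited, led by 2713077 (-1.82 ± 0.40) and 2713076 (-1.75 ± 0.36). Of the other 6, 2713087 to 2713092, none was called lower, and 2713090 was called higher, at 1.49 ± 0.39 (adjusted p 0.00596) as deposited and 1.38 (adjusted p 0.00820) centred. Probe set 2713090 read 4.97, 3.39 and 4.44 uninduced untreated and 7.13, 5.91 and 6.21 with Xrn1, and 4.70, 4.29 and 5.17 against 5.14, 6.60 and 4.88 in induced cells, where the groups overlapped. The gene's low average thus combined falling probe sets with others that did not fall. Groups of numbers were chosen after their values had been seen, and how numbers relate to positions in the transcript is not given in the labels or tables.

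NCK1 fell at 4 of its 7 probe sets. Probe set 2644172 read 5.89, 2.81 and 5.22 uninduced untreated against 1.85, 3.21 and 2.61 with Xrn1, and 3.95, 5.81 and 4.97 against 2.25, 1.39 and 1.79 in induced cells, an average difference of -2.59. Uninduced untreated replicate 2 overlapped with the Xrn1 arrays there. The lowest-numbered, 2644156, gave 0.67 and the highest-numbered, 2644177, gave -0.48, and neither was called.

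No single probe set of the 5 genes was called by limma for induction without Xrn1, induction with Xrn1 or the interaction. At an unadjusted p under 0.05 there were 13, 7 and 18 of 92, beside 13.7%, 7.12% and 19.4% of all probe sets. Over all probe sets the shares called lower and higher were 0 and 0, 0.000142% and 0.00581%, and 0.00269% and 0.00638%.

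**Figure D4:**
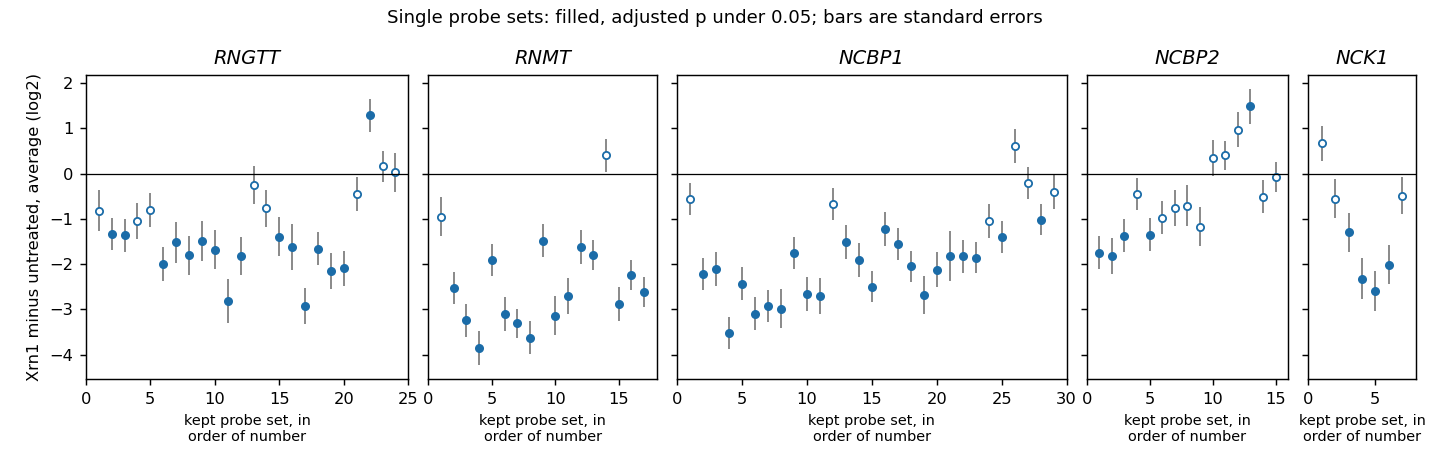
Average Xrn1 difference (log2, points) with its standard error (bars) for each kept probe set of the 5 genes in order of probe set number, as deposited; filled points have an adjusted p under 0.05. Most points lie below 0, and the filled points above 0 are 2964017 of RNGTT and 2713090 of NCBP2.

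The likeness of the 5 genes across arrays also turned on the break. Over the 12 arrays, which share groups and levels, Pearson's r as deposited was 0.99 between RNMT and NCBP1 and 0.97 between RNGTT and NCK1, each pair on the same side, but 0.46 between RNMT and NCBP2 and 0.47 between NCBP1 and NCBP2, the subunits of the same complex. Centred, r was 0.86 for RNMT and NCBP2 and 0.89 for NCBP1 and NCBP2, while RNMT and NCBP1 kept 0.99. RNGTT and RNMT, which act in succession on the same cap, moved from 0.75 to 0.94. These correlations describe the group differences as much as any shared variation, and many other genes were more alike. As deposited, NCBP1 ranked 233 in likeness to RNMT and NCK1 ranked 597 in likeness to RNGTT, among 16882 genes. Centred, RNMT ranked 2403 in likeness to RNGTT.

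Among 16882 other genes, the most alike as deposited were ANO10, MKLN1 and DCAF1 for RNGTT (r of 0.99 each), TXNRD1, SMURF2 and PRKDC for RNMT, NHLRC2, TUBGCP3 and RDX for NCBP1 (0.997 to 0.998 for these 6), ZCCHC17, EIF2B5 and CFLAR for NCBP2 (0.99, 0.98 and 0.98), and MPP6, DCPH1 and TRIT1 for NCK1 (0.99 each). After centring 8 of these 15 were still among the 3 most alike: ANO10 and MKLN1, SMURF2 and PRKDC, TUBGCP3 and RDX, EIF2B5, and DCPH1. The median r over all genes lay between 0.06 and 0.17 as deposited and between 0.12 and 0.38 after centring.

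Of 8 genes in a list of cap methylation and its methyl supply, 6 were called lower and 0 higher in the average as deposited, beside 29.8% and 14.2% of all genes. After centring these counts were 7 and 0, beside 34.3% and 20.2%, and after cyclic loess 6 and 1, beside 26.7% and 27.5%. As deposited, AHCY (-0.53) and PCIF1 (0.28), which methylates the first adenosine next to the cap, did not pass. The list's median was -0.99, beside 0.05 for all genes. MAT2A, which makes the methyl donor, gave -1.87 ± 0.24 (standard error) and -1.20 after cyclic loess, MTAP, which salvages methionine, -1.35, and CMTR1, which methylates the first nucleotide, -1.01. TGS1, which hypermethylates caps of small RNAs, also passed, at -1.005.

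Factors that meet the cap-binding complex on the way out of the nucleus fell in 9 of 14 cases, with 0 higher, as deposited and centred. Over all genes 29.8% and 34.3% were lower and 14.2% and 20.2% higher. After cyclic loess 8 fell, beside 26.7% of all genes. XPO1, the export receptor, gave -2.64 ± 0.24, KPNB1 and KPNA3, importins that carry the complex back, -2.43 and -2.42, and NXF1, the mRNA export receptor, -1.59. Cyclic loess gave -1.18 for KPNB1 and -1.02 for NXF1. The list's median was -0.89. MAT2A, KPNB1, KPNA3, EIF4B, EIF4E and PAK2 had kept probe sets on both sides of the break, and probe sets there may report near-identical copies.

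In a list of cytoplasmic cap binding and its regulators, 12 of 15 genes were lower and 1 higher as deposited, and 13 and 1 after centring. Over all genes 29.8% and 34.3% were lower and 14.2% and 20.2% higher. The list's medians were -1.25 and -1.35. EIF4E, the cytoplasmic cap-binding protein, gave -2.07, EIF4B -2.23, EIF4G2 -2.23, and CYFIP1, a partner of EIF4E, -1.51. After cyclic loess 9 were lower, beside 26.7% of all genes, the median was -0.49, and EIF4B gave -1.06 and EIF4G2 -0.92. Of 8 genes of cap quality control and removal 2 were lower, 1 higher and 5 not called, with a median of -0.32, and 3 were lower after centring. A share of 2 in 8 is near that of all genes, 29.8%, and the 3 in 8 after centring stood beside 34.3%. The 2 were DUSP11, a phosphatase of RNA 5' ends (-1.37), and DCP2, the decapping enzyme (-1.22), and DUSP11 was not called with the median of its probe sets (-0.53). NUDT16, a nucleotide hydrolase, rose by 0.66 (adjusted p 0.019 in limma), and DXO, which removes faulty caps, gave 0.51 without passing. NUDT16 did not pass without uninduced untreated replicate 2 (0.46) or induced Xrn1 replicate 3 (0.61), with the median of its probe sets (0.50) or with its own spread. DXO passed without uninduced untreated replicate 1 (0.61) or 3 (0.62), after cyclic loess (0.66) and with arrays centred on their median gene (0.63).

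Of 8 genes of polymerase II kinases and elongation factors, which bring capping enzymes to the transcript, 5 were lower as deposited and 6 after centring, with a median of -0.72. Over all genes 29.8% and 34.3% were lower. CCNT1 gave -2.47, SUPT4H1 -1.16, MNAT1 -0.87 and CDK9 -0.73. After cyclic loess SUPT4H1 was not called (-0.13) and the direction of CDK9 turned (0.12). With it 3 of the 8 were lower, beside 26.7% of all genes, and the list's median was -0.36. Of 15 measured partners of NCK adaptors, 12 were lower and 0 higher as deposited and centred, beside 29.8% and 34.3% of all genes lower. After cyclic loess 11 were lower, beside 26.7%. The list was led by NCKAP1 (-2.39), PAK2 (-1.85), ABI1 (-1.68) and EIF2B2 (-1.62, and -0.98 after cyclic loess).

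For induction, limma called 0 of the 68 genes of these lists in either RNA state. At an unadjusted p under 0.05 there were 27 without Xrn1 and 13 with it as deposited, beside 30.8% and 9.09% of all genes, and 8 and 5 after centring, beside 6.19% and 5.62%. In the interaction, 24 of the 68 were called as deposited, 23 of them wholly above the break. Of all genes 20.6% were called higher and 1.23% lower, and of those wholly above the break 36.7% were called higher. After centring 0 of the 68 were called, with 18 at an unadjusted p under 0.05, beside 14.6% of all genes.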

How the data were processed

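The authors deposited log2 probe set values of 12 exon arrays; the submitters' processing notes name RMA and oligo, without versions or genome build. RMA commonly scales arrays to a shared distribution, so differences are relative to the rest of an array. Of 1411399 probe sets, 357604 had 1 symbol, 15322 several and 1038473 none. Genes needed at least 3 kept probe sets (mean above 2.04), which left 16883. Contrasts were fitted with limma 3.58.1 in R 4.3.3 over 4 group means, and the fits were tested on simulated data. The gene prior was infinite as deposited and had 21.2 degrees of freedom after centring.

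The break was placed at the row where a single division of the order best separated the array levels by least squares; alternatives based on it were chosen after seeing the data. The members, the lists and the other alternatives were chosen with earlier results of these data known. Those alternatives were the gene summary, the filter, the normalization, the prior or each gene's own spread, array weights, the samples fitted, a replicate block, single arrays left out, and CM5 and CM5X (uninduced replicate 2 of both RNA states) left out together.

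The rule for named probe sets took, per gene, the 2 brightest and the 2 lowest and 2 highest average Xrn1 differences; others were chosen after their values were seen. The rule for list genes took the 4 smallest p and up to 2 called for induction or interaction, and for likeness the 3 highest correlations. CM1X and CM2X share replicate number 2 in their titles; CM1X was taken as replicate 1. Between samples of the same number, deviations from group means correlated at -0.71 to 0.13 as deposited and at -0.47 to 0.0046 centred. The deposited values carry the break, and neither set can decide whether samples were paired. The numbers were not taken to pair samples in the main fit, and a replicate block was run as an alternative.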

Additional observations from a re-analysis of the deposited data

Results flagged for a closer look

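In 11 named genes of the lists the Xrn1 difference was different between both induction states by limma's interaction test on the deposited values. All 11 were named by the rule because they passed, so their passing follows from the rule. Of all genes 20.6% were called higher, and of those wholly above the break 36.7%. The interaction (log2) was 2.08 for EIF4EBP2, 1.73 for NXF1, 1.70 for EIF2B2, 1.64 for SUPT4H1, 1.63 for DCPS, 1.61 for CBL, 1.60 for PCIF1, 1.49 for POLR2A, 1.49 for THOC5, 1.42 for CMTR2 and 1.39 for CYFIP1, with adjusted p between 0.00522 and 0.034. All 11 lie above the break in the numbering. After centring on either side of it, their interactions were 0.61 to 1.30, none passed, and the smallest adjusted p was 0.207. Without induced untreated replicate 1, none of the 11 passed on the deposited values, which were then 1.09 to 1.70. Groups of 3 arrays were too small for a check of single arrays that stand apart.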

How the results depend on the processing

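For the average Xrn1 difference, RNGTT, RNMT, NCBP1 and NCK1 kept their direction and their call under every alternative run, other than NCK1 with its own spread (-1.23, adjusted p 0.0597 in limma without a prior). NCBP2 kept its direction and passed with array weights (-0.75), without CM5 and CM5X (-0.79), after centring on either side of the break (-0.63, also with its own spread), after quantile normalization on either side (-0.50), and centred without induced untreated replicate 1 (-0.71); with single arrays left out it ran from -0.73 to -0.39. Its uninduced difference turned to 0.15 with arrays centred on their median gene and to 0.36 after cyclic loess, and ran from -0.64 to 0.047 with single arrays left out.

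Induction without Xrn1 turned for RNGTT with array weights (-0.37), without CM5 and CM5X (-0.31), centred (-0.30, with either spread) and after quantile normalization (-0.16), and ran from -0.31 to 0.58 with single arrays left out. For NCBP2 it turned without CM5 and CM5X (-0.032) and centred (-0.11), with a range of -0.032 to 0.65. For NCK1 it turned without the filter (0.040), with arrays centred on their median gene (0.16) and after cyclic loess (0.12), with a range of -0.69 to 0.40. RNMT and NCBP1 passed with array weights (-0.997 and -1.01), ran from -1.02 to -0.47 and from -0.96 to -0.41, and NCBP1 turned to 0.053 when centred without induced untreated replicate 1. With Xrn1, centring, also with its own spread or without induced untreated replicate 1, turned RNGTT to 0.068, RNMT to -0.11, NCBP2 to 0.16 and NCK1 to 0.054. Quantile normalization turned RNGTT to 0.014, RNMT to -0.16 and NCK1 to 0.019, and RNMT also turned with the median of the probe sets (-0.022) and cyclic loess (-0.090).

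The interaction turned for RNGTT with array weights (0.27), without CM5 and CM5X (0.22), centred (0.37) and after quantile normalization (0.17). For NCBP2 it turned centred (0.28) and centred without induced untreated replicate 1 (0.10). For NCK1 it turned with the median of the probe sets (0.12), array weights (0.57), without CM5 and CM5X (0.57), centred (0.67), after quantile normalization (0.54) and centred without induced untreated replicate 1 (0.12), with a range of -0.72 to 0.36 over single arrays left out. RNMT and NCBP1 passed without the filter (1.10 and 1.10) and with array weights (1.20 and 1.42), ran from 0.70 to 1.25 and from 0.80 to 1.35, and turned to -0.10 and -0.0001 when centred without induced untreated replicate 1. CDK9 turned to 0.12 in the average after cyclic loess. The cause of these changes was not tested.

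With a replicate block (sample number for Xrn1 differences, replicate number for induction) the average differences stayed at -1.26 for RNGTT, -2.39 for RNMT, -1.80 for NCBP1, -0.52 for NCBP2 and -1.23 for NCK1, and the call for NCBP2 in induced cells was lost (-0.82, adjusted p 0.082); no other call of the 5 genes changed. Signal limits what can be said of the Xrn1 arrays, where RNGTT, RNMT, NCBP1 and NCK1 averaged 2.39 to 2.99, not far above the filter of 2.04.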
